A study of Mus musculus with 14 samples.

Results

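Fusion-lost regions inside genes are stretches of chromatin that gave an ATAC-seq peak in both libraries of empty-vector mouse neural stem cells and in neither library of the same cell type carrying the ZFTA-RELA fusion. Overlapping peaks of these 4 lists were merged on chromosomes 1 to 19, and 5515 of 72575 merged regions met the rule, lying more than 1 kb from any protein-coding gene end and overlapping a protein-coding gene body. They were 18% of the 30637 merged regions inside genes, and close to as many as the 5070 fusion-lost regions between genes. A further 733 fusion-lost regions lay at gene ends. Lost regions of any place were 15.6% of all merged regions and gained ones 22.3%. The regions were chosen by the presence of a peak in the EV lists and its absence in the ZR lists, so both are definitions, and values from those 4 libraries are given without a test.

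ATAC-seq uses the Tn5 transposase to insert adapters into accessible DNA, so that a peak marks an open stretch. The data were 14 peak lists, 1 per library of 50000 cells, in 7 groups of 2 libraries. ZR denotes mouse neural stem cells with the ZFTA-RELA fusion under a PBS vehicle label. EV denotes empty-vector cells; the vehicle named for replicate 1 is DMSO and that for replicate 2 is PBS. Another 3 groups of the first library series were fusion cells: ZR_GSK343 received the EZH2 inhibitor GSK343 at 10 µM for 96 h, ZR_dmCitra is titled dmCitra and labelled citraconate at 10 mM, and ZR_DMSO is titled DMSO but labelled with PBS vehicle. In a second series, Citraconate_50K is labelled fusion cells with citraconate at 10 mM and DMSO_50K is labelled empty-vector cells with DMSO. Drug and cell line thus change together in that series and cannot be told apart. Citraconate was given for 24 h or 48 h, without a time for any library. The labels name neither the promoter driving the fusion, nor the number of clones, nor separate cultures, so the spread between replicates may be technical.

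The ZFTA-RELA fusion joins the zinc finger protein ZFTA to RELA, a transcription-activating subunit of NF-kB, and drives a form of ependymoma of the cerebral hemispheres. Neural stem cells are kept in their state by factors of the Sox, nuclear factor I, Notch and basic helix-loop-helix families. Many of their distal regulatory elements, enhancers among them, lie inside long genes, often in introns, and can act on the gene that holds them or on another one nearby. An accessible region inside a gene is therefore not evidence of which gene it acts on, nor of any change in expression, which was not measured here. Boundaries of exons and introns were not used here.

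A minority of these regions covered an annotated transcription start within the gene. RefSeq start windows run from 250 bases before to 50 bases after a start, and those of 1 chromosome, with 213 of the regions, were not used here. Of the other 5302 regions, 147 (2.77%) overlapped a start window and 108 (2.04%) a start of the gene that held them. For fusion-gained regions inside genes, those with a peak in both ZR and neither EV list, the second share was 0.902%, and for regions inside genes shared by all 4 lists it was 21.3%, over the same chromosomes. The source of the start windows gave a strand for the gene of 4237 of the 5462 fusion-lost regions lying in 1 gene. For gained regions this was 5973 of 7604 and for shared ones 3079 of 3903. Part of the rest lay on the chromosome left out. Regions in genes without a start window stay in the denominators, so these shares may be too low. Start windows of 4 genes are shown because their fusion-lost regions, which held the window end to end, ranked highest in EV of such regions. They are RefSeq sequences of build GRCm38.p6, read 5′ to 3′ on the minus strand, at chr10:10472350-10472649 (Adgb), chr4:91371991-91372290 (Elavl2), chr15:94404301-94404600 (Adamts20) and chr8:54724319-54724618 (Wdr17). Capitals mark the GC box GGGCGG on either strand, a site known to be bound by Sp and Klf factors.
Adgb: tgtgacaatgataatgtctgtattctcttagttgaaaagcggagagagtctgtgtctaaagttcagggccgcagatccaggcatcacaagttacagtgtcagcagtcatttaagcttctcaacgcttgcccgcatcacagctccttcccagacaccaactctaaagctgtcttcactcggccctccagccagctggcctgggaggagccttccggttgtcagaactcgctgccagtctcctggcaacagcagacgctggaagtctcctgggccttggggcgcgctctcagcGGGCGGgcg
Elavl2: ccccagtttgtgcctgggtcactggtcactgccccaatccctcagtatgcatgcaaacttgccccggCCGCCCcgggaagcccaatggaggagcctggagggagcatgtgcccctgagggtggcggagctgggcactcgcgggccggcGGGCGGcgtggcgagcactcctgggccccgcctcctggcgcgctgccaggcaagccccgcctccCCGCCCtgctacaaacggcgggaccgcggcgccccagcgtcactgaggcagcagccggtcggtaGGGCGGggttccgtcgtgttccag
Adamts20: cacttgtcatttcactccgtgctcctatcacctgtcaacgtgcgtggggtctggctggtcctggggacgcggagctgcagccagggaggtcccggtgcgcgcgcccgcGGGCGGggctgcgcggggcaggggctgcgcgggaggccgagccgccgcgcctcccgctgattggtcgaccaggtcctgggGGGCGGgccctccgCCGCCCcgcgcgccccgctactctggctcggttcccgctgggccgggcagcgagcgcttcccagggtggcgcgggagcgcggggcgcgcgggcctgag
Wdr17: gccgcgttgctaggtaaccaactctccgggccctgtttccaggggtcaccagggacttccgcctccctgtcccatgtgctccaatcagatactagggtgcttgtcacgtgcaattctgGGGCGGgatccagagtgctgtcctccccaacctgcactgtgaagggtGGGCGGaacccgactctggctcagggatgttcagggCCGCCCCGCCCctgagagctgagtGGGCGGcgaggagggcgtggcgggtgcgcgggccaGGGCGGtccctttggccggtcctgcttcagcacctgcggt

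The Adgb window, of a gene for the globin-like protein androglobin, held 1 GC box and 13 CpG, at 56.0% GC. The Elavl2 window, of a neuronal RNA-binding protein, held 4 GC boxes and 27 CpG, at 72.3% GC. The window of Adamts20, which encodes a secreted metalloprotease, held 3 GC boxes and 41 CpG, at 77.3% GC. Wdr17 had 6 GC boxes, 2 of them overlapping, and 19 CpG, at 66.3% GC. All 4 windows had more CpG than the median of the class, whose 166 windows had a median of 8 CpG and 54.0% GC, against 5 CpG and 52.0% for the 112 windows under fusion-gained regions, 21 CpG and 62.7% for the 1159 under shared regions, and 7 CpG and 53.0% over all 31396 RefSeq start windows used.

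Simple motifs were searched on both strands of the same windows, as a description of letters and not of binding. TGANTCA, the AP-1 site of Fos and Jun factors, was in 4.22% of windows under fusion-lost regions, against 26.8% under fusion-gained regions, 6.21% under shared regions and 7.84% of all windows. The E-boxes CAGCTG and CATCTG, sites of basic helix-loop-helix factors, were in 27.1% and 25.3% of windows under fusion-lost regions, against 16.3% and 17.2% of all windows. CAGCTG was about as frequent under fusion-gained regions, at 25.9%, while CATCTG was there in 15.2%. The Sox site ACAAAG was in 23.5% of windows under fusion-lost regions and 18.6% of all windows, and the POU octamer ATGCAAAT in none of the 166. The GC box was in 36.7%, close to the 36.0% of all windows and below the 62.9% under shared regions. The 10-letter NF-kB motif was in 8 of the 166 windows (4.82%), against 0.893% under fusion-gained regions and 1.66% of all windows. In all 20 motifs were searched, and the windows cover only the few regions over an annotated start. The 166 windows lay under 147 regions, so windows are not separate regions and 1 site can count more than once.

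The lists differed in length and in kind. They held 12554 to 60472 peaks, with median widths of 418 to 533 bp in the ZR, EV, ZR_dmCitra, Citraconate_50K and DMSO_50K libraries, but 330 and 260 bp in ZR_GSK343 and 227 and 186 bp in ZR_DMSO. The ZR_GSK343 libraries had 19513 and 57634 peaks. Read depth cannot be known from these lists. The neural stem label was checked on 10 marker genes: 4 and 4 had a gene-end peak in ZR, and 8 and 9 in EV, where Sox2, Sox1 and Nes had one in both libraries. Of markers of other cell types, Snap25, Gja1, Col1a1 and Spi1, a myeloid factor, had a gene-end peak in both ZR and both EV libraries. Neurod1, P2ry12, Kdr, Tagln and Olig2 had one in both EV and not in both ZR libraries. Tubb3 had one in both ZR and not in both EV libraries. The part of such markers in the results below was not tested.

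The DMSO_50K libraries go against their empty-vector label in these regions. They had a peak in 74.5% and 81.0% of the 7671 fusion-gained regions inside genes, which both EV lists lack by definition, and in only 15.8% and 19.5% of the 5515 fusion-lost ones. They are called the libraries labelled DMSO_50K below, and results that rest on them are marked as such.

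The fusion-lost regions inside genes were narrow and of moderate height. They were 158 to 2612 bp wide with a median of 490 bp, close to the 472 bp of fusion-gained regions inside genes and below the 881.5 bp of shared ones. Their median distance to the nearest protein-coding gene end was 31740 bp, with a range of 1001 to 964343 bp. Fold enrichment, the authors' peak height over local background, ran from 4.42 to 54.9 in EV replicate 1 with a median of 8.21, and from 4.23 to 61.4 in EV replicate 2 with a median of 9.52. Ranked by −log10 q within each EV list, with 100 the strongest, the poorer of the 2 percentiles had a median of 39.1, against 56.8 for shared regions inside genes. Position along the gene was taken for regions in 1 gene of known strand, 4237 fusion-lost, 5973 fusion-gained and 3079 shared. From the 5′ end fusion-lost regions lay at a median of 49.4% of the gene's length. Fusion-gained regions inside genes also lay at 49.4%, and shared ones at 40.1%.

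Near the limits of the rule, the EV values of regions on either side overlapped. The 3 regions closest outside 1 kb lay 1001 bp from a gene end in Lgr5, a receptor gene known to mark stem cells, and the overlapping A930009A15Rik, 1004 bp in Srgap2 and 1007 bp in Dbn1, which encodes the actin-binding protein drebrin, with EV folds of 12.6 and 16.4, 6.32 and 7.41, and 9.47 and 10.1. The 3 EV-only regions just too close to be counted lay at 998 bp in Iqcn and Cotl1 and 988 bp in Prmt8, with EV folds of 8.21 and 11.6, 6.95 and 10.6, and 13.3 and 13.2. Of the 10175 regions inside genes found in both EV lists, 718 were also in 1 ZR list and 3942 in both. Another 5633 regions inside genes were in 1 EV and no ZR list. With EV replicate 1 left out, the rule found 9826 regions in place of 5515.

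The 10 highest-ranked regions were all far above the median height, with folds of at least 34.1 in EV replicate 1 and 39.7 in replicate 2. The first was in Fbxl17, which encodes an F-box subunit of a ubiquitin ligase, and in the overlapping gene Gm41607, at chr17:63285094-63285981, 888 bp wide and 11816 bp from a gene end. Its fold enrichment was 54.9 and 61.4 in the EV libraries, and no other list had a peak there. The second was in Nkain3, whose product binds a subunit of the sodium pump, at chr4:20342711-20344944, with folds of 45.5 and 49.2. The third was in Astn2, which encodes an astrotactin that acts in glia-guided neuronal migration, at chr4:65839158-65840438, with folds of 41.1 and 46.0. Neither region had a peak in any library outside EV.

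Kcnq3, a subunit of the voltage-gated potassium channels behind the M-current, held the fourth at chr15:66238784-66240699, with folds of 40.4 and 45.5 and no peak in another list. The fifth, in the IgLON adhesion gene Negr1 at chr3:157208689-157209910, had folds of 40.4 and 51.8 in EV. It also had a peak in ZR_dmCitra replicate 2, Citraconate_50K replicate 1 and DMSO_50K replicate 2, so it was not empty in every fusion-labelled library. The regions in Slc8a1, a sodium-calcium exchanger, with folds of 36.6 and 52.4, and in Crb1, an apical polarity protein, with folds of 34.1 and 52.4, had a peak in both libraries labelled DMSO_50K and in none labelled fusion. Those in the ephrin receptor gene Epha5, with folds of 36.0 and 40.7, in the protease gene Adamts3, with 38.5 and 39.7, and in the homeodomain factor gene Zfhx3, with 34.7 and 41.8, had a peak in no other list. Thus 7 of the 10 were seen in EV alone, close to the 72.2% of all 5515 regions.

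**Figure D1:**
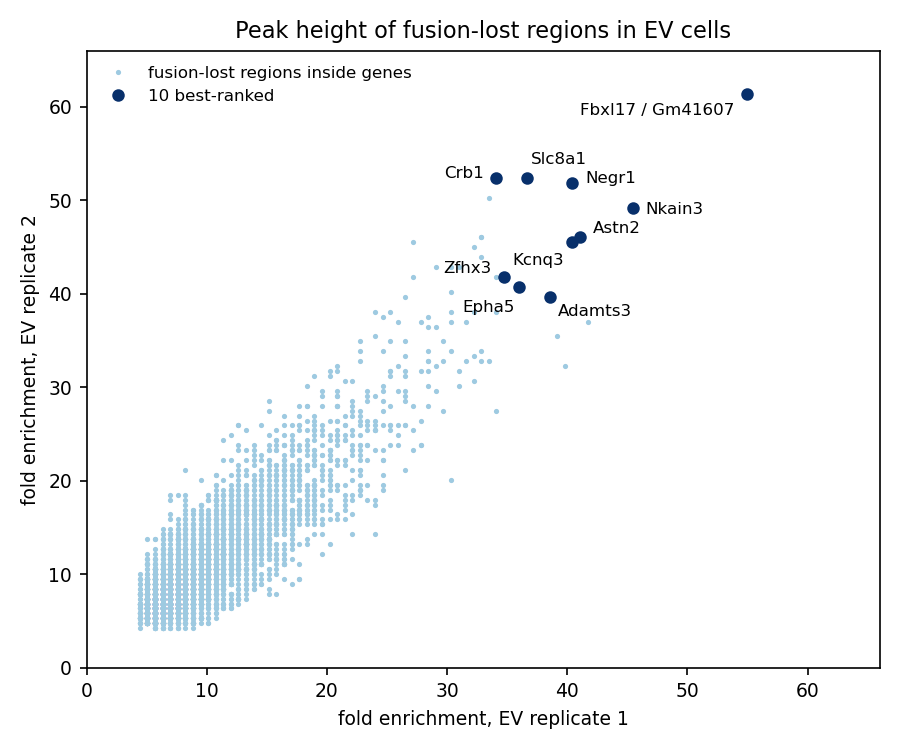
Fold enrichment over local background of each of the 5515 fusion-lost regions inside genes in EV replicate 1 (horizontal) and EV replicate 2 (vertical), with the 10 best-ranked regions in dark blue under their gene names. Most regions lie near the medians of 8.21 and 9.52, and the region in Fbxl17 / Gm41607 is the highest at 54.9 and 61.4.

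The regions were spread over 2791 of 20665 protein-coding genes (13.5%). Of these genes 1529 held 1 region, 1044 held 2 to 4 and 218 held 5 or more. Only 53 regions lay over more than 1 gene, 2 of them over the protocadherin gamma cluster, where 24 overlapping gene models share each region. Genes holding them were long, with a median of 95627 bp against 17491 bp over all protein-coding genes. A region was present in 0.872% of genes up to 10 kb, 12.5% of those from 10 to 100 kb, 56.5% of those from 100 to 500 kb and 76.9% of the 216 longer ones. These classes held 68, 1852, 2862 and 832 regions, a region over several genes counting in each. Per Mb of gene body the density was 2.20, 4.88, 6.99 and 4.56, highest in genes of 100 to 500 kb. The share of inside regions that were fusion-lost was 11.5%, 15.4%, 19.6% and 22.0%.

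The ends of these genes were mostly open in both cell types. A gene-end peak was found in all 4 ZR and EV lists for 1591 of the 2791 genes (57.0%), in both EV and no ZR list for 179 (6.41%), in both ZR and no EV list for 54 (1.93%) and in none for 725 (26.0%). Over all protein-coding genes the shares were 46.2%, 2.68%, 2.12% and 42.2%. Fusion-lost and fusion-gained regions often shared a gene: 1447 of the 2791 genes (51.8%) also held a gained region, against 17.9% of all genes, which are shorter. Fusion-lost regions had another of their kind within 10 kb in 24.1% of cases, against 30.5% for gained and 17.3% for shared regions inside genes. These shares follow the sizes of the classes, 5515, 7671 and 3942 regions, and are no measure of clustering by themselves.

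Frmd4a, a scaffold gene of epithelial polarity, held the most, with 15 fusion-lost regions over 596394 bp beside 5 gained and 9 shared ones. Their folds were 5.05 to 17.7 in EV replicate 1 and 5.82 to 15.9 in replicate 2, so none was among the highest, and 8 of 15 had no peak in any other list. Fat3, an atypical cadherin gene, held 13 with 0 gained and 0 shared, 11 of them in no other list, and its gene-end peak was in both EV lists and not in ZR. Dab1, the adaptor that relays reelin signals in migrating neurons, held 12 over 1125345 bp with 0 gained and 0 shared, and none of the 12 had a peak in any other library. One Dab1 region of 2176 bp covered an internal start of the gene, with EV folds of 15.2 and 22.2. In Fat3 and Dab1 every region counted as lost or gained by the rule was a lost one.

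Zfhx3 and Ptprm, a receptor-type tyrosine phosphatase gene, held 12 fusion-lost regions each, beside 8 and 5 gained ones. Negr1 held 12 beside 2 gained and 2 shared. Macrod2, which encodes an ADP-ribose hydrolase and spans 1997664 bp, held 12 lost and 22 gained regions, and was the only one of the 10 genes with more gained than lost. The kelch-like gene Klhl29, the sorting receptor gene Sorcs1 and the calmodulin-binding transcription activator gene Camta1 held 11 each, with 1, 3 and 3 gained. Klhl29 was the densest, with 3.69 fusion-lost regions per 100 kb. Camta1 and Macrod2 had 4 regions each with a peak in both libraries labelled DMSO_50K, and Ptprm, Negr1, Dab1, Klhl29 and Sorcs1 had 0.

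**Figure D2:**
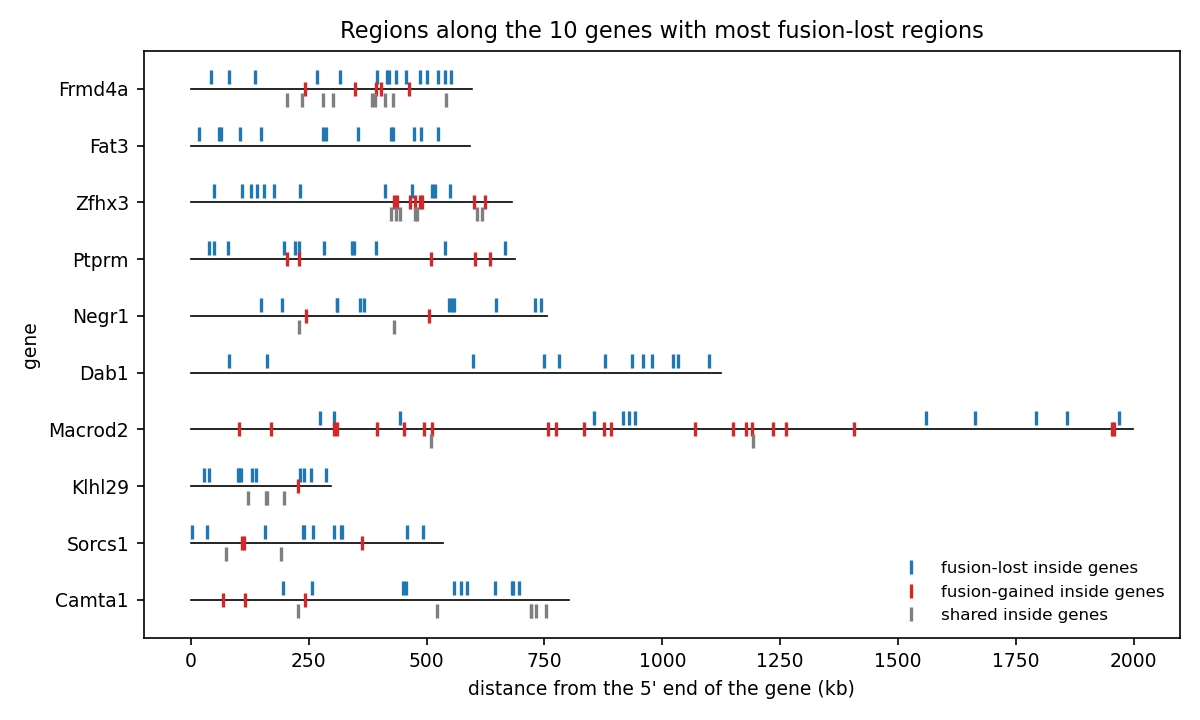
Positions of fusion-lost (blue, above the line), fusion-gained (red, on the line) and shared (grey, below) regions along the 10 genes with most fusion-lost regions, as distance from the 5′ end in kb. Fat3 and Dab1 hold 13 and 12 lost regions and no gained or shared one, while Macrod2 holds 12 lost and 22 gained.

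The neural stem list and the radial glia and astrocyte list held more fusion-lost than fusion-gained regions. In the neural stem list, 17 of 47 genes held 55 lost regions and 32 gained ones, which is 10.5 and 6.13 per Mb of gene body, against 5.60 and 7.72 per Mb over all protein-coding genes. Within the list 13 genes had more lost than gained and 3 more gained than lost, while over all genes these numbers were 1745 and 2832. Nfia, a nuclear factor I gene that promotes gliogenesis, held 7 lost, 4 gained and 6 shared regions. Its strongest, at chr4:97648853-97650317, had a fold of 23.4 in EV replicate 1 and a peak in DMSO_50K replicate 2. Its paralogs Nfix and Nfib held 3 lost and 0 gained, and 4 lost and 1 gained. Gli2, an effector gene of hedgehog signalling, held 3 lost and 5 gained, so the direction was not uniform.

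The Notch receptor gene Notch1 and its ligand gene Jag1 held 2 lost and 0 gained regions each. Ptprz1, a receptor phosphatase gene of radial glia, held 3 lost and 0 gained, and its gene-end peak was in both EV lists only. Of the 55 regions of this list, 13 lay on chromosome 4, which stood apart as described below. In the radial glia and astrocyte list 16 of 38 genes (42.1%, against 13.5% of all genes) held 44 lost and 24 gained regions. That is 9.89 and 5.40 per Mb, against 5.60 and 7.72 over all genes. It shares Nfia, Nfib, Nfix and Gli3 with the first list, and these held 7, 4, 3 and 5 of the 44. On chromosome 4 lay 11 of the 44. Within the list 14 genes had more lost than gained and 5 more gained than lost, among them Gpc5 with 2 and 4 and Lrig1 with 1 and 3. Slc1a3, the glial glutamate transporter gene GLAST, held 4 lost and no other class. Its strongest, at chr15:8659369-8660684, had a fold of 30.3 in EV replicate 1 and no peak outside EV. Its gene-end peak was in all 4 lists. Daam2, which encodes a formin of Wnt signalling, held 5 lost and 3 gained, the strongest with EV folds of 30.9 and 42.9.

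The neuron and oligodendrocyte lists held more gained than lost regions, as did all protein-coding genes together, with 5515 lost and 7671 gained. The neuron list had 38 lost and 70 gained regions, or 7.43 and 13.7 per Mb, of which Rbfox1, a splicing factor gene, held 7 and 17. The oligodendrocyte list had 36 and 55, or 6.35 and 9.71 per Mb, near the 5.60 and 7.72 of all genes, and of these Sox5 alone held 6 and 22. Within it Lhfpl3, with 6 lost and 0 gained, and the IgLON gene Opcml, with 7 and 2, went the other way.

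Adhesion, guidance and synaptic genes, many of them long, held many fusion-lost regions, at 3.14 to 7.50 per Mb of gene body against 5.60 over all genes. In the axon guidance list 33 of 39 genes held 96 lost regions, beside 83 gained. Sema3a, a secreted repellent of axons, held 5 lost and 3 gained, while Plxna2, a semaphorin receptor gene, held 3 lost and 7 gained. In the IgLON and immunoglobulin adhesion list 17 of 23 genes held 78 lost and 63 gained. Astn2 held 8 lost and 2 gained, and Astn1 held 6 and 1. The cadherins had 66 and 60, with 9 and 4 in Cdh4, the R-cadherin gene. The glutamate and GABA receptor list had 59 and 32, with 6 and 0 in Grik1, which encodes a subunit of kainate-type glutamate receptors. Neurexins, neuroligins and contactin-associated genes had 38 and 43, with 10 and 2 in the synaptic adhesion gene Nlgn1.

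Signalling lists are read against the same 5.60 lost and 7.72 gained regions per Mb over all genes. Receptor tyrosine kinases had 39 lost and 40 gained regions, or 8.21 and 8.42 per Mb. Ntrk3, a neurotrophin receptor gene, held 6 and 0, and the growth factor receptor gene Egfr 5 and 2, with a strongest region at chr11:16831462-16832679 of folds 28.4 and 31.7 in EV and no peak in other lists. Wnt, Bmp and Tgfb genes had 28 and 36, or 10.8 and 13.8 per Mb. Potassium and calcium channels had 54 and 64, or 4.55 and 5.40, and motile cilia genes 15 and 18, or 4.25 and 5.10. NF-kB subunits, inhibitors and targets had 7 and 8, or 11.2 and 12.8 per Mb. A lost region lay in 5 of their 28 genes (17.9%), against 13.5% of all protein-coding genes. Genes associated with fusion-positive ependymoma had 8 lost and 18 gained, or 2.81 and 6.32 per Mb, both below the values of all genes. Of these genes, 4 had more lost than gained and 2 more gained than lost. Housekeeping genes, which are short, had 0 lost and 1 gained.

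A short list with an uneven count was that of Polycomb subunits and of the H3K27 demethylases that remove the histone mark EZH2 writes. A lost region lay in 4 of its 21 genes, and the list held 11 lost and 2 gained. That is 13.9 and 2.53 per Mb of gene body, against 5.60 and 7.72 over all protein-coding genes. The lost density was the highest of the 17 lists, but it rests on few regions. Phc2 held 4 lost and 0 gained, Jarid2 held 3 and 1, Cbx7 held 3 and 0, and Pcgf2 held 1 and 0. Phc2, on chromosome 4, thus gave 4 of the 11. Of the 11 regions, 54.5% and 63.6% had a peak in the libraries labelled DMSO_50K, against 15.8% and 19.5% of all 5515. Ezh2 itself held none. These counts are descriptions of 17 lists, with no test.

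**Figure D3:**
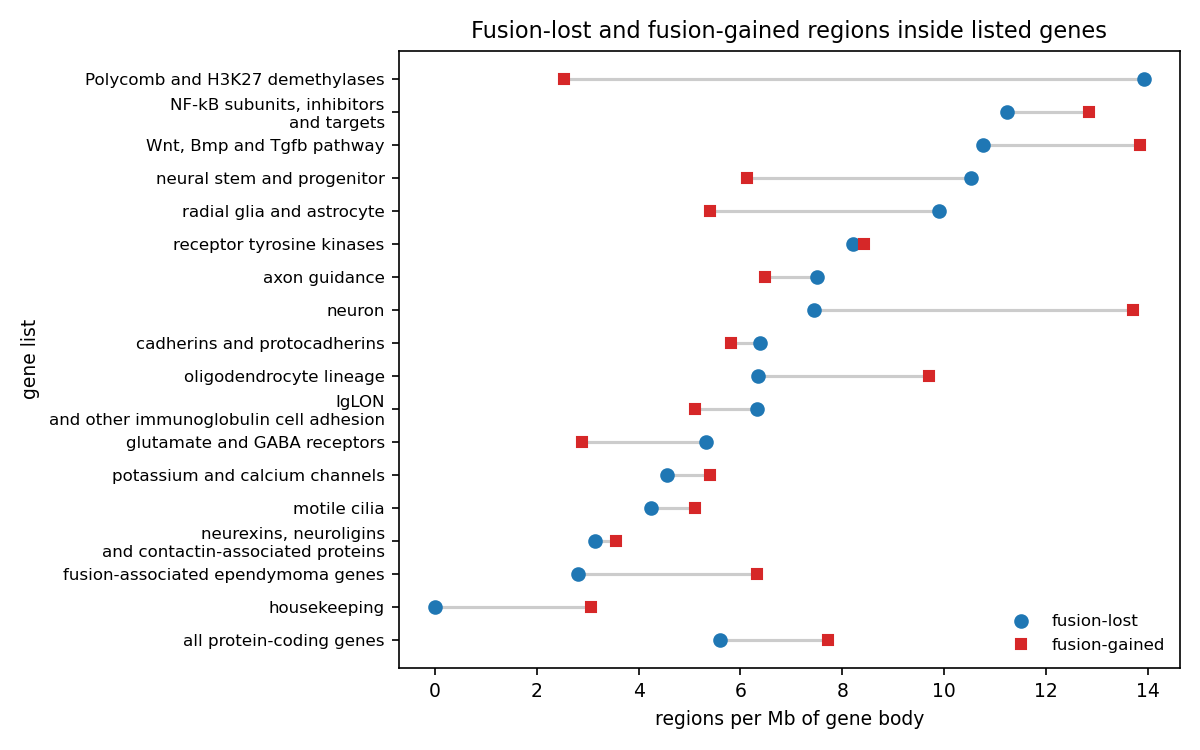
Fusion-lost (blue circles) and fusion-gained (red squares) regions per Mb of gene body for each gene list, ordered by the density of lost regions, with all protein-coding genes at the bottom. Neural stem genes had 10.5 lost and 6.13 gained per Mb and neuron genes 7.43 and 13.7, against 5.60 and 7.72 over all genes.

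Chromosome 4 stood apart from the other chromosomes. It held 433 of the 5515 regions (7.85%), and 29.4% of its merged regions inside genes were fusion-lost, against 17.4% on the other 18 chromosomes together and 14.0% to 22.7% on each of them. Its share of gained regions was the lowest, at 13.6%, against 18.1% to 29.8% elsewhere. Of the 10 highest-ranked regions 2 lay there, in Nkain3 and Astn2, and of the 10 genes with most regions also 2, Dab1 and Camta1. Without chromosome 4 the regions numbered 5082, and the differences between treatments given below were within 0.1 points of those for all regions.

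**Figure D4:**
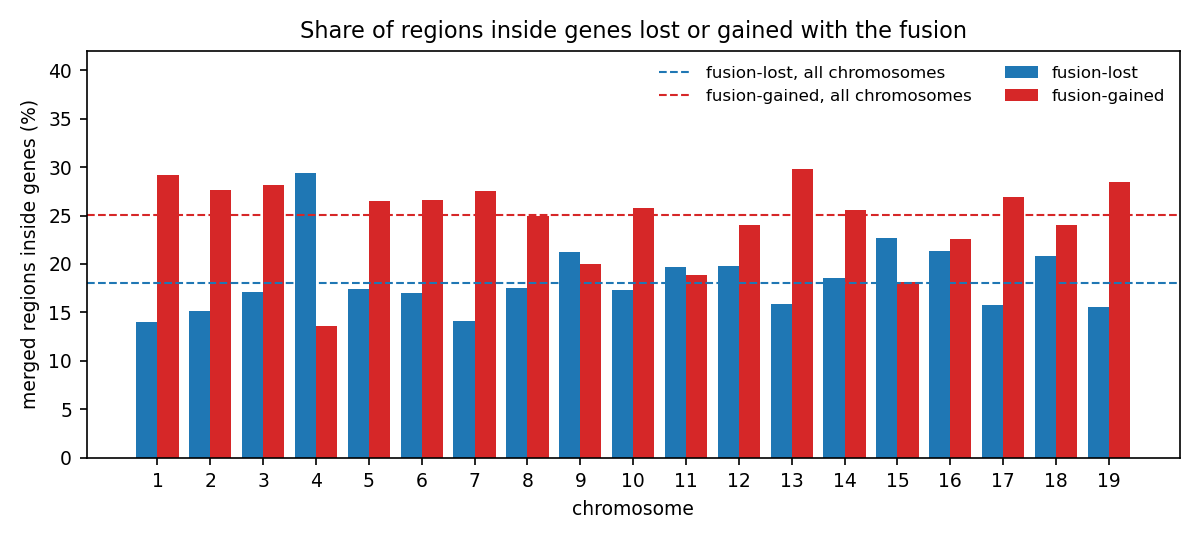
Percentage of merged regions inside genes that were fusion-lost (blue bars) or fusion-gained (red bars) on each chromosome, with dashed lines for chromosomes 1 to 19 together (18% lost and 25.0% gained). Chromosome 4 has the highest lost share, 29.4%, and the lowest gained share, 13.6%.

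In the 10 libraries that the rule did not use, fusion-lost regions inside genes were mostly without a peak. Of the 5515 regions 3984 (72.2%) had a peak in none of them, and 4731 (85.8%) in none of the 8 others labelled fusion. Those with a peak in both libraries labelled DMSO_50K numbered 773 (14.0%). Of the 1379 regions with the highest EV percentiles, 18.9% and 23.5% had a peak in the libraries labelled DMSO_50K, against 14.0% and 17.4% of the 1379 with the lowest. In ZR_dmCitra the shares were 2.90% and 2.83% of the highest and 4.21% and 3.12% of the lowest. The 1379 regions next above the lowest had 4.57% and 4.21%, so there was no steady order.

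GSK343 inhibits EZH2, the methyltransferase that writes the repressive H3K27 mark, and the comparison asks whether fusion-lost regions had a peak more often in treated fusion cells. They had a peak in 0.707% and 6.82% of cases in ZR_GSK343, against 0.127% and 0.381% in ZR_DMSO. Both treated libraries were above both controls, but the treated libraries differed from each other, with 39 and 376 regions. Over all merged regions the shares were 17.9% and 42.8% in ZR_GSK343, against 13.7% and 21.3% in ZR_DMSO, so a higher mean in ZR_GSK343 is not particular to fusion-lost regions. The difference for fusion-lost regions was 3.51 ± 4.32 percentage points (SD of the difference, n = 2 libraries each; exact permutation test over libraries, two-sided, p = 0.333, adjusted 0.444 over 4 comparisons). With 2 libraries against 2, 0.333 is the smallest p this test allows. Without ZR_GSK343 replicate 2 the difference was 0.453 points, and with the 4 lists reduced to equal length it was 0.0272 points.

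A peak in both ZR_GSK343 and neither ZR_DMSO list was found in 14 of 5515 regions (0.254%), against 4.65% of all merged regions, 9.74% of shared regions inside genes and 5.73% of the 733 fusion-lost regions at gene ends. The reverse was found in 0 regions, against 0.537% of all merged regions. The best-ranked of the 14 was in Cbx7, a Polycomb chromobox gene, at chr15:79932393-79932961, with folds of 6.22 and 9.55 in ZR_GSK343 and 6.32 and 11.1 in EV. It was followed by regions in Pgf, a placental growth factor gene, with 5.83 and 11.9, in Satb1, a chromatin organiser gene, with 6.61 and 5.11, in the autophagy gene Tecpr2, with 5.44 and 7.50, and in the synaptic gene Elfn1, with 5.44 and 5.46. The Satb1 region, which covers an internal start of the gene, had EV folds of 29.1 and 32.3, higher than those of the other 4.

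Citraconate is described by the study's design as an antagonist of ACOD1, the enzyme that makes itaconate. In ZR_dmCitra 3.93% and 3.39% of fusion-lost regions had a peak, against 0.127% and 0.381% in ZR_DMSO. The groups did not overlap, and the difference was 3.41 ± 0.424 points (SD of the difference, n = 2 libraries each; exact permutation p = 0.333, adjusted 0.444). At equal list length the sign turned: 0.0725% of regions had a peak in ZR_dmCitra and 0.136% in ZR_DMSO. The ZR_DMSO lists are short and their peaks narrow, and in the same libraries the mean share of all merged regions with a peak was 50.0% in ZR_dmCitra and 17.5% in ZR_DMSO. 

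A peak in both ZR_dmCitra and neither ZR_DMSO list was found in 87 fusion-lost regions (1.58%), against 23.3% of all merged regions and 44.3% of fusion-gained regions inside genes, and the reverse in 1 region (0.0181%), against 0.165%. The best-ranked of the 87 in ZR_dmCitra was in Pea15a, a phosphoprotein gene well expressed in astrocytes, at chr1:172204841-172205688, with folds of 43.1 and 39.8 in ZR_dmCitra and 10.7 and 10.6 in EV. It lay 1116 bp from the nearest gene end, close to the 1 kb limit. Next came regions in Agbl4, with folds of 13.5 and 13.3, in Kcnq3, with 13.5 and 11.7, in the dynein adaptor gene Bicd2, with 10.4 and 13.8, and in Accsl, with 14.5 and 10.1. The Kcnq3 region, at chr15:66033784-66034465, is another than the best-ranked one in that gene.

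GSK343 and citraconate, given at different doses and times, are set side by side only. The means were 3.76% ± 4.32 in ZR_GSK343 and 3.66% ± 0.385 in ZR_dmCitra (SD, n = 2 each), a difference of 0.0997 points with an SD of 4.34 and an exact permutation p of 1. Both are set against the same ZR_DMSO libraries. A peak in both ZR_GSK343 and neither ZR_dmCitra library was found in 12 regions (0.218%), against 0.750% of all merged regions, and the reverse in 53 (0.961%), against 11.1%.

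In the second series 4.17% and 3.46% of fusion-lost regions had a peak in Citraconate_50K, against 15.8% and 19.5% in the libraries labelled DMSO_50K. The groups did not overlap, and the difference was −13.8 ± 2.66 points (SD of the difference, n = 2 libraries each; exact permutation p = 0.333, adjusted 0.444). At equal list length it was −2.37 points, with 3.57% and 5.94% as means. All merged regions also had a peak less often in Citraconate_50K, at 35.1% and 33.6%, against 52.5% and 57.9% in DMSO_50K. Citraconate and the fusion label cannot be told apart here.

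A peak in neither Citraconate_50K and both DMSO_50K lists was found in 571 fusion-lost regions (10.4%), against 16.2% of all merged regions, and the reverse in 9 (0.163%), against 0.719%. Of these 9 the best-ranked lay in Ethe1, a mitochondrial sulfur dioxygenase gene, with folds of 7.28 and 8.33 in Citraconate_50K, in Prkaa2, a catalytic subunit of AMP-activated kinase, with 10.9 and 7.22, in Gpr179, with 6.24 and 7.22, in the collagen gene Col27a1, with 6.24 and 8.88, and in Runx2, an osteoblast transcription factor gene, with 9.36 and 6.66. Their EV folds were all between 6.32 and 16.9.

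**Figure D5:**
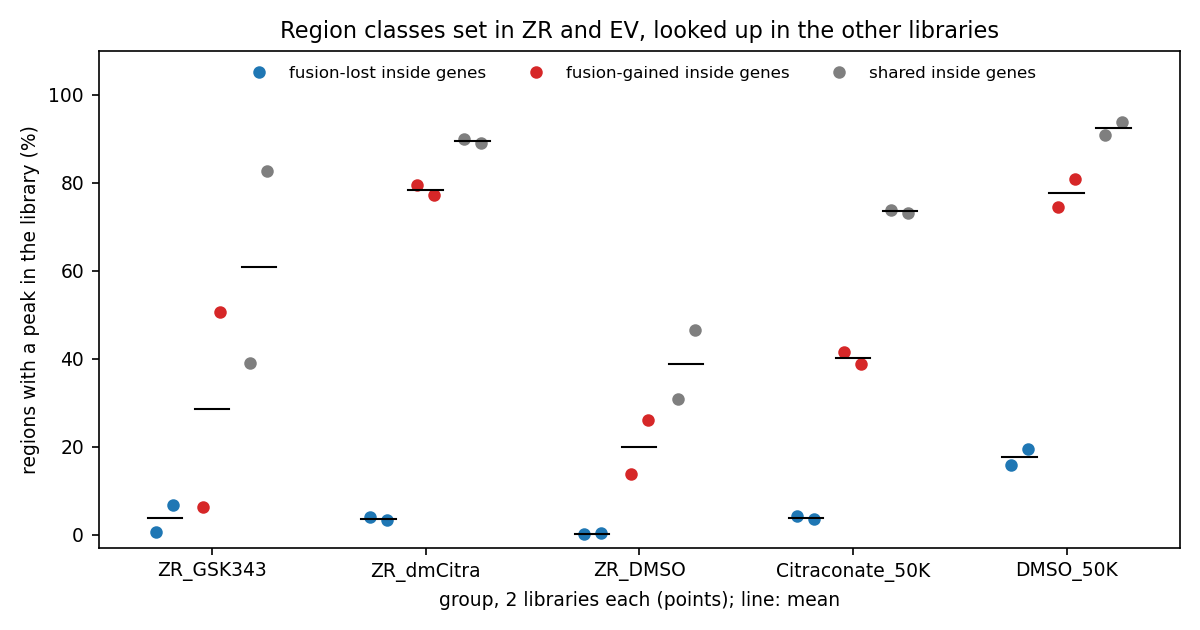
Percentage of fusion-lost (blue), fusion-gained (red) and shared (grey) regions inside genes with a peak in each library of the 5 groups the rule did not use; points are the 2 libraries and lines their mean. Fusion-lost regions reach at most 6.82% in every library but the 2 labelled DMSO_50K, where 15.8% and 19.5% had a peak.

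Regions over an internal start of their own gene had a peak in the other libraries at higher shares than all 5515 regions, except in ZR_DMSO; this is a description of 108 regions, with no test. Of these regions 1.85% and 36.1% had a peak in ZR_GSK343, 11.1% and 11.1% in ZR_dmCitra, 0% and 0% in ZR_DMSO, 14.8% and 13.9% in Citraconate_50K and 33.3% and 36.1% in the libraries labelled DMSO_50K. For all 5515 regions the values in ZR_GSK343 were 0.707% and 6.82%. All shares of the 108 regions were below those of all merged regions, which were 17.9% and 42.8% in ZR_GSK343 and 50.9% and 49.1% in ZR_dmCitra. Fusion-lost regions at gene ends had 7.23% and 35.2% in ZR_GSK343, 11.1% and 9.41% in ZR_dmCitra and 17.7% and 15.0% in Citraconate_50K. In the libraries labelled DMSO_50K they had 25.6% and 30.8%. The higher shares are thus not particular to internal starts. The high value in ZR_GSK343 rests on replicate 2, the longest list of the libraries labelled fusion. Of the 4 genes whose start windows are printed above, Elavl2 had a peak in 5 other libraries, Wdr17 in 3, and Adgb and Adamts20 in 1 each. Grip1, a scaffold gene of glutamate receptors, and Dab1 had internal-start regions with no peak outside EV.

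Regions seen in many other libraries were rare, with 83 of 5515 in 5 or more of the 10. The region in Jmy, an actin nucleator gene, had a peak in 8, among them both ZR_DMSO libraries, although it was only 221 bp wide with EV folds of 5.68 and 9.52. Those in Tbc1d30, in Coro7 and the overlapping Vasn, in the ETS repressor gene Erf and in Unc5cl had a peak in 7 each. The Tbc1d30 region was the strongest of these, with EV folds of 20.8 and 22.2. For the regions named here, the absence from both untreated ZR lists was not shared by most other fusion-labelled libraries.

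Among the microRNAs of the RefSeq table used, 4 hairpins were overlapped by a fusion-lost region inside a gene, and 1 of them is widely known in neurons. Mir128-2, inside Arpp21 on chromosome 9, gives rise to a mature microRNA whose seed, bases 2 to 8, is in capitals.
mmu-miR-128-3p: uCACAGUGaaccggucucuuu
The region over it, chr9:112118422-112118707, had EV folds of 6.32 and 6.88 and no peak in other lists. The other hairpins were Mir6352 in Epha4, Mir6403 in Man1c1 and Mir7662 in Tspan15. The Tspan15 region was the strongest, with EV folds of 14.5 and 19.05, and the only one with a peak in both libraries labelled DMSO_50K.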

How the data were processed

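ATAC-seq libraries of 50000 cells were sequenced as paired 50 nt reads, per the labels' protocols. Alignment was to mm10 and the tools named are BWA, Picard and SAMtools, with no version, per the submitters' processing notes. The peak names in the deposited files show 1 MACS2 run per library. MACS2 settings and any correction for the Tn5 offset: not given in the sources used here. The authors deposited, for every peak, a score, a fold enrichment and −log10 p- and q-values. These were used to rank, filter and describe peaks inside a list. Where folds of 1 region in several lists are given, each is on its own list's scale and they were not compared. Without read counts in the lists, library depth is unknown.

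The fusion-lost regions and the gene lists were chosen with earlier results of these data known. Peaks of the ZR and EV lists as deposited were merged on chromosomes 1 to 19, with presence in a library meaning an overlap of at least 1 bp (Python 3.11.15, pandas 2.3.3, NumPy 2.4.6, SciPy 1.17.1). Gene positions, internal starts and sequences came from RefSeq tables of GRCm38.p6, whose coordinates are those of mm10. Of 475 listed genes 457 matched. Gene lists, markers and motifs were written by hand. Sequences around peak summits and motif searches there were planned but not done, because no genome was used; RefSeq start windows took their place, and those of chromosome 18 were not used. For shares of regions with a peak, an exact permutation test over libraries (two-sided) was used, with Benjamini-Hochberg adjustment over 4 comparisons, and gene lists were only counted. The genes named were, by rule, the 10 best-ranked regions, the 10 genes with most regions, up to 3 genes per list, up to 5 regions per treatment, the 5 regions in most other lists and 3 regions on either side of 1 kb; other listed genes and those over internal starts or microRNAs were named after their values were seen. Some results under this rule are not reported. Alternatives were equal list length, −log10 q of at least 5, a 50% overlap, windows of 500 bp and 2 kb, leaving out chromosome 4 or each library, and pairing by replicate number. On 6000 simulated regions with 1500 made to meet the rule, the code recovered 100% with 0 false calls, which checked the code and not the error between replicates.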

Additional observations from a re-analysis of the deposited data

Results flagged for a closer look

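The share of fusion-lost regions inside genes with a peak moved in opposite directions with citraconate in the 2 library series. It was 3.41 points higher in ZR_dmCitra than in ZR_DMSO, and 13.8 points lower in Citraconate_50K than in DMSO_50K, so that the 2 differences lay 17.2 points apart. Every ZR_dmCitra library was above every ZR_DMSO library and every Citraconate_50K library below every DMSO_50K library. The difference between the series was not tested. All merged regions showed the same signs, with 32.5 points in the first series and −20.9 in the second, so the pattern is not particular to fusion-lost regions. The libraries labelled DMSO_50K carry an empty-vector label, and the sign of the first difference turns at equal list length.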

How the results depend on the processing

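The number of fusion-lost regions inside genes was 5178 to 5619 under the other thresholds, windows and overlaps and 5082 without chromosome 4. Leaving out 1 library gave 5880 to 9826, the highest without EV replicate 1. Alternatives chosen after seeing the data gave 4731 regions with no peak in any other library labelled fusion and 773 with a peak in both libraries labelled DMSO_50K. The 10 best-ranked regions all met the rule under each of these settings except without chromosome 4, which left 8, without those in other fusion libraries, which left 9, and with the DMSO_50K condition, which left 2. The difference of ZR_dmCitra from ZR_DMSO was −0.0635 points at equal list length; with 1 library left out it was 3.14 to 3.68 points. That of ZR_GSK343 from ZR_dmCitra was −0.481 points at −log10 q of at least 5, −0.517 with a 50% overlap, −0.891 with regions defined at equal list length, −2.96 without ZR_GSK343 replicate 2 and −0.172 without ZR_dmCitra replicate 2, in a range of −2.96 to 3.16. The cause was not tested. ZR_GSK343 against ZR_DMSO gave 0.453 to 6.56 points with 1 library left out, and Citraconate_50K against DMSO_50K −15.7 to −11.96. Both kept their sign under all alternatives run, at equal list length with 0.0272 and −2.37 points. ZR in place of ZR_DMSO was not run, since the rule sets ZR at 0. No test could pass 0.05 with 2 libraries against 2.

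Replicate numbers did not pair the libraries: no label ties them, and the deviations of same-numbered libraries correlated at 0.00540 to 0.0833 over merged regions. As a replicate block, the differences of 3.51, 3.41, 0.0997 and −13.8 points were unchanged, with exact sign-flip p-values of 0.5, 0.5, 1 and 0.5, the smallest possible being 0.5.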

Other observations

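Chromosome X, which the rule leaves out, had 686 merged regions inside genes, of which 82 (11.95%) were fusion-lost and 216 (31.5%) fusion-gained, against 18% and 25.0% on chromosomes 1 to 19.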
